A study of Mus musculus with 18 samples.

Results

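The genes described here are 10 regulators of entry into the cell cycle, read in 4T1, a mammary tumour cell line of BALB/c mice. They are the cyclin-dependent kinase (CDK) inhibitor genes Cdkn2a, Cdkn2b, Cdkn2c, Cdkn1a, Cdkn1b and Cdkn1c, the D-type cyclin genes Ccnd1 and Ccnd2, the kinase gene Cdk6 and the transcription factor gene Myc. They were taken by symbol from count tables of 34591 gene symbols, and all 10 symbols were present. Poly(A) RNA was sequenced from 18 libraries in 6 groups of 3. Parental 4T1 cells were given fresh RPMI (untreated) or fresh RPMI with 2 ng/mL recombinant human TGFb1, and RNA was taken at 24 h. Puromycin-selected 4T1 lines carrying either an empty lentivirus (EV) or one for Wisp1 were grown to subconfluence on tissue culture plastic or on dishes coated with Collagen type I. Wisp1 encodes a secreted, matrix-associated CCN protein. Growth medium in all 6 groups was RPMI with 10% FCS. EV and Wisp1 were each a single transduced line, and the labels do not say that the libraries of a group came from separate cultures, so p-values cover only the spread between these libraries.

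D-type cyclins bind CDK4 or CDK6 and phosphorylate the retinoblastoma protein, which releases E2F factors and lets a cell leave G1. Inhibitors of the INK4 family (Cdkn2 genes) bind CDK4 and CDK6, and those of the CIP/KIP family (Cdkn1 genes) bind cyclin-CDK complexes more widely. MYC drives growth and ribosome production. In normal epithelial cells TGF-beta is known as a cytostatic cytokine that raises Cdkn2b and Cdkn1a and lowers Myc, and carcinoma lines often lose parts of that programme.

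Gene counts per library ran from 37552858 to 94401699. Levels are given in CPM (counts-per-million gene counts), after TMM scaling over the 18 libraries. Comparisons used edgeR's quasi-likelihood test, and calls are adjusted p-values under 0.05 over every gene in the comparison; ± after a log2 change is its SE. Wisp1 itself was at 36.8 to 72.1 CPM in EV and 897 to 1066 CPM in the Wisp1 line on plastic, and at 14.1 to 16.1 and 1054 to 1120 CPM on collagen. After TGFb1, 4 of 7 genes listed as a check of the treatment were called higher. Among them was Skil, a feedback regulator of SMAD signalling (2.29-fold, adjusted p = 0.0026). Without untreated replicate 2 the count was 2. Over all genes 1645 (11.1%) were called, and 380 to 1430 with a library left out. The summed level of 10 mammary epithelial markers was 3318 to 5891 CPM, with the basal keratin gene Krt5 at 0 counts in 5 of 6 groups. Of 7 leukocyte markers Cd3e had no count in any library. Cd68 (3.07 to 11.5 CPM), Lyz2 (0 to 13.3 CPM) and Csf1r (0.0917 to 3.33 CPM) reached the highest levels of that list. The leukocyte list summed to 4.2 to 21.6 CPM, and 5 endothelial markers to 0.14 to 0.504 CPM. Of 8 fibroblast markers Thy1 had no count, and the list, most of it Pdgfra, summed to 35.9 to 59.4 CPM in untreated cells, 56.6 to 71.6 with TGFb1, 17.0 to 22.8 on plastic and 25.3 to 33.3 on collagen.

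Of the 10 genes, 8 had counts and 7 were high enough to be tested; Cdkn1c was too low, and Cdkn2a and Cdkn2b had no count in any library. Ccnd1 and Cdk6 fell with TGFb1, so 2 of 7 were called, both lower, in a comparison where 11.1% of 14874 genes were called (6.14% higher and 4.92% lower). In bulk RNA less RNA per cell and fewer expressing cells cannot be told apart. Between substrates, 6 of 7 were called on collagen against plastic in EV (36.5% of 13953 genes, 19.2% higher and 17.3% lower) and 5 of 7 in the Wisp1 line (40.4%, 21.3% higher and 19.1% lower), with Cdkn1a, Cdkn1b and Cdkn2c higher and Ccnd2 and Myc lower on collagen in both lines. Wisp1 against EV gave 0 of 7 calls on plastic (0.0143% of genes) and 0 of 7 on collagen (0.0717%). With a replicate block within substrate it gave 2 of 7 on plastic, Ccnd1 and Ccnd2 (3.15% of genes), and 0 of 7 on collagen (2.57%). Between EV on plastic and untreated parental cells 4 of 7 were called (43.4% of 14476 genes, 19.5% higher and 23.8% lower), Ccnd2, Myc and Cdk6 higher and Cdkn1a lower in EV. The last comparison joins vector, selection, medium change and library series, which cannot be told apart in it. The first code in the labels is different for each of the 6 groups, without a stated meaning. It thus differs between plastic and collagen, and also within the TGFb1 and the Wisp1 comparisons. Substrate and any library series cannot be told apart in the substrate comparisons.

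**Figure D1:**
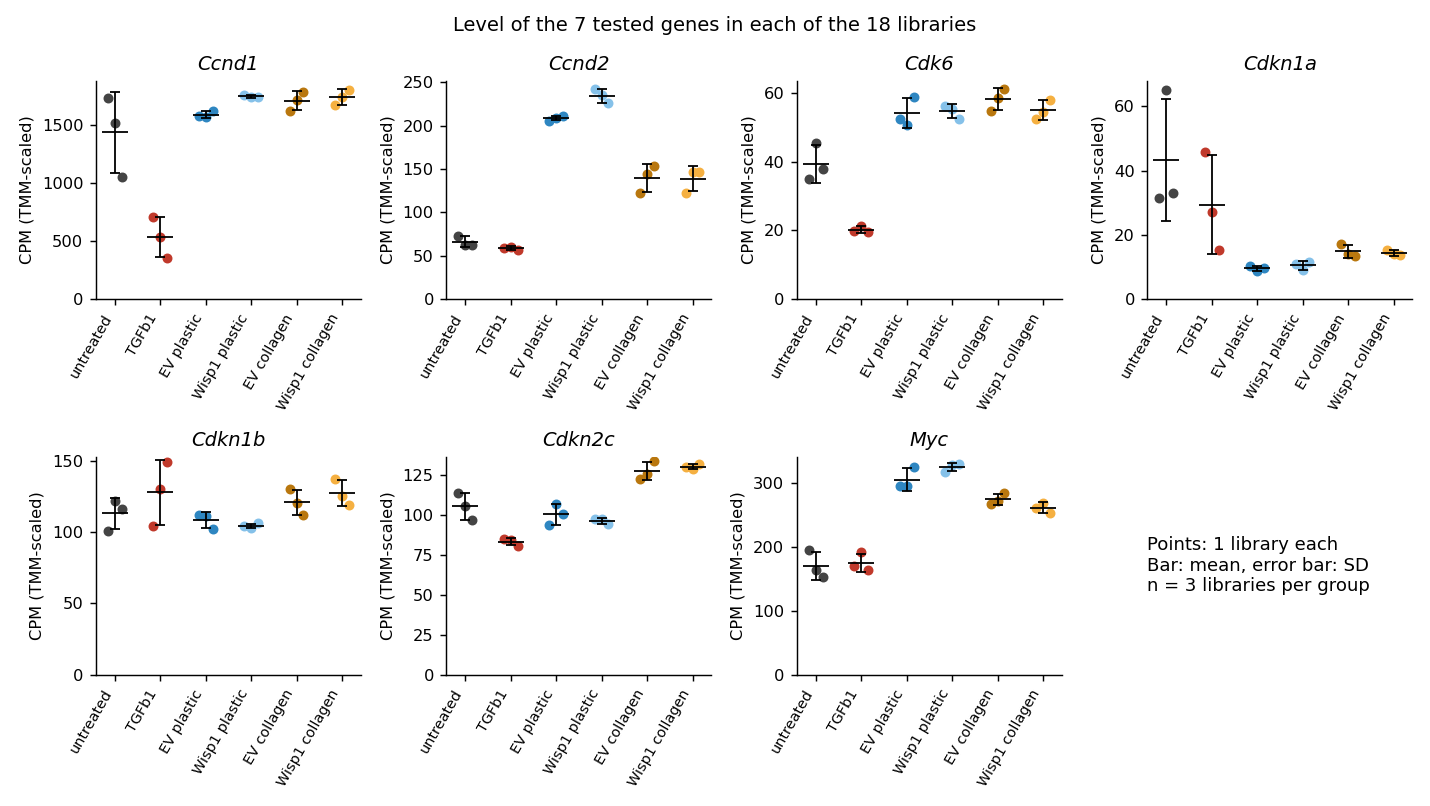
Level in CPM (linear axis from 0) of the 7 tested genes in each of 18 libraries, 3 per group, with the group mean as a bar and the SD as an error bar. Ccnd1 and Cdk6 are lowest in the TGFb1 group, Ccnd2 and Myc are highest on plastic in the stable lines, and the 3 untreated Cdkn1a points run from 31.6 to 65.1 CPM.

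**Figure D2:**
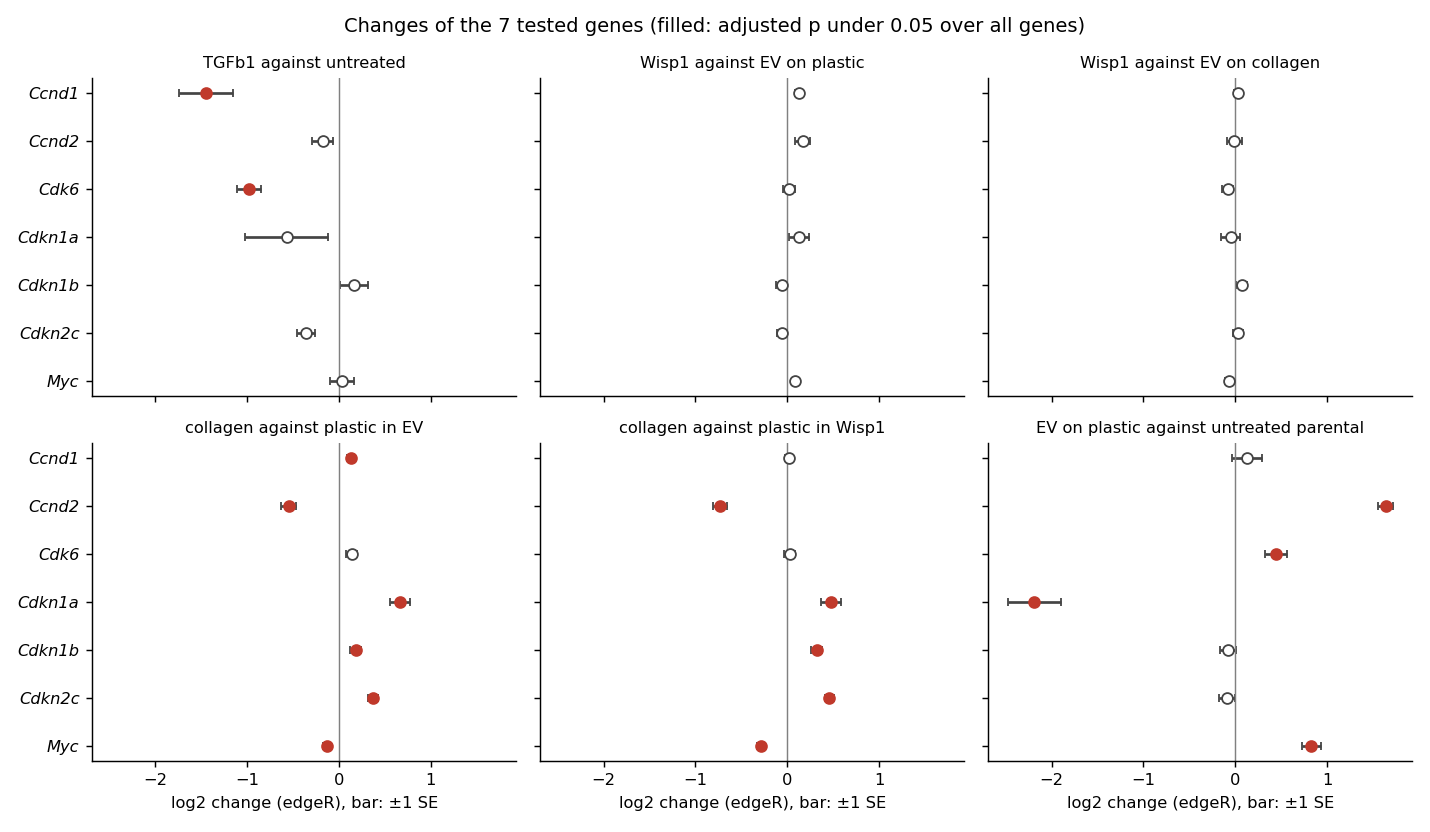
Log2 change of the same 7 genes in 6 comparisons, as the edgeR estimate with a bar of 1 SE either side; filled points passed the adjusted p. Both Wisp1 panels hold open points only, and Ccnd2 and Myc lie left of 0 in both collagen panels.

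Among the INK4 inhibitors, Cdkn2a, whose locus encodes a CDK4 and CDK6 inhibitor and, in another reading frame, the ARF protein that stabilises p53, had 0 counts in 18 of 18 libraries. Cdkn2b, the neighbouring INK4 gene and a classic TGF-beta target, also had 0 counts in 18 of 18, TGFb1-treated libraries included. With 1179 M (mega) gene counts in all, 0 allows a level of up to 0.00255 CPM over the series, at 3 counts, and of up to 0.0318 to 0.0799 CPM in a single library; these limits cover counting error only. No count anywhere was found for 10624 symbols, or 30.7% of the table. The genes on either side were not all silent. Mtap, the methylthioadenosine phosphorylase gene next to Cdkn2a in RefSeq order, had 27612 to 71857 counts per library (646 to 857 CPM). Beyond Mtap the long noncoding RNA genes Gm12602 and Gm12603 had 568 to 1884 and 29 to 109 counts.

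On the other side of Cdkn2a, Gm12610, a long noncoding RNA gene whose RefSeq span overlaps that of Cdkn2b, had 0 to 10 counts and was seen in 16 of 18 libraries. Dmrta1, beyond Cdkn2b, had 0 to 6 counts in 5 libraries, Zfp352 1 to 16 counts in all 18 and Elavl2 0 to 14 counts in 6. Izumo3 and Gm12637 had none. At the outer end of the Mtap side, the interferon gene Ifna1 had none and Ifne 0 to 3. Abundant counts were thus found at Mtap and the next gene out, Gm12602, while the genes shown beyond Cdkn2b had at most 16 per library. Whether the DNA of this region is present was not measured, and the counting of reads with several alignments is not given in the sources used here.

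**Figure D3:**
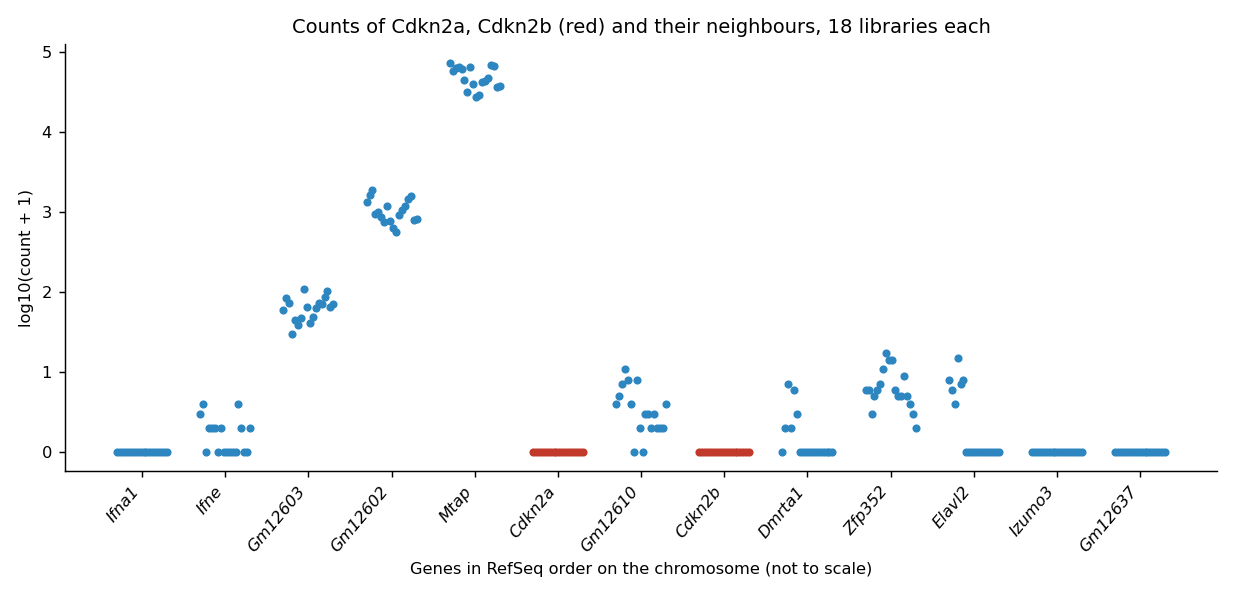
Counts, as log10(count + 1), of Cdkn2a and Cdkn2b (red) and of the genes around them in RefSeq order (blue), 18 points per gene, 1 per library. Mtap lies between 27612 and 71857 counts, while all 36 red points lie at 0.

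RefSeq promoter entries were matched for 6 of the 10 genes, and 3 are shown because these genes stand for the patterns described here: Cdkn2b for absence of counts, Cdkn1a for the spread between parental libraries, and Cdkn1b for a level that moved little. Each is the stretch of 240 bases that ends 10 bases before a RefSeq start in GRCm38.p6, 5′ to 3′ on the gene's strand. Capitals mark CAGAC, the core of the SMAD-binding element, and GGGCGG, the GC box bound by SP1, each searched on both strands (GTCTG and CCGCCC on the other); they do not overlap each other here. The windows are chr4:89311043-89311282 on the minus strand, with no GENCODE exon in it; chr17:29093519-29093758 on the plus strand, before the downstream of 2 Cdkn1a starts and overlapping an exon of AC167363.2; and chr6:134920151-134920390 on the plus strand, with no exon.
Cdkn2b: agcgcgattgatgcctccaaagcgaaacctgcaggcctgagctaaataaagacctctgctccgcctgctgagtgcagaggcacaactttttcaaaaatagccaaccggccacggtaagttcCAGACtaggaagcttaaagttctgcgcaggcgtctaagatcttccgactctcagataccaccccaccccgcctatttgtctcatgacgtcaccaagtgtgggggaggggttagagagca
Cdkn1a: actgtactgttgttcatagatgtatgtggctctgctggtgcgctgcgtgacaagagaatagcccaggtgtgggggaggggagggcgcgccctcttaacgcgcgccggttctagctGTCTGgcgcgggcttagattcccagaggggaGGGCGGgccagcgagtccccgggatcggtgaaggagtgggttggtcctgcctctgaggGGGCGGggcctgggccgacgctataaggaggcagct
Cdkn1b: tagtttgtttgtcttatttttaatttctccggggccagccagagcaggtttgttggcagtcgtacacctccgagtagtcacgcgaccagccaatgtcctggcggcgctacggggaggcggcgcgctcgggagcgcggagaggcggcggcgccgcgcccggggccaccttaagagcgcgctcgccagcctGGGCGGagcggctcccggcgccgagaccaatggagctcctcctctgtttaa
The Cdkn2b window holds 1 CAGAC and no GC box, the Cdkn1a window 1 CAGAC match and 2 GC boxes, and the Cdkn1b window 1 GC box and no CAGAC. Of 32851 RefSeq promoter windows of the same length, 40.9% hold CAGAC and 31.3% hold GGGCGG on either strand. The E-box CACGTG, which MYC-MAX dimers bind, is in none of these 3 windows and in 5.69% of all. A match is a run of letters in the reference and not a measured binding site.

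The remaining INK4 gene of the set had counts in every library. Cdkn2c, an inhibitor of CDK4 and CDK6, was at 114, 106 and 96.9 CPM in untreated libraries and at 84.8, 84.2 and 80.7 CPM after TGFb1. Every treated library lay below every untreated one. Cdkn2c was 1.29-fold lower (log2 change −0.36 ± 0.10 SE, n = 3 per group), which missed the threshold (adjusted p = 0.063) and passed it with the pairs of libraries that share a label code as a block (adjusted p = 0.0022). It also passed with DESeq2 (0.027), a stricter filter on low counts (0.047), upper-quartile scaling (0.038) and all 18 libraries in a fit (0.00058), and 3 of 3 pairs were lower. In all, 3 of 7 genes were called in the blocked fit, each of them lower, where 44.9% of all genes were called (22.4% higher and 22.5% lower).

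On plastic Cdkn2c stood at 93.6, 107 and 101 CPM in EV and at 97.5, 97.9 and 94.5 CPM in the Wisp1 line. On collagen the libraries read 123, 126 and 134 CPM in EV and 130, 129 and 132 CPM in the Wisp1 line. All 6 collagen libraries were above all 6 on plastic, and above the 3 untreated ones. Cdkn2c was 1.3-fold higher on collagen in EV (log2 0.37 ± 0.05, adjusted p = 4.2e-05) and 1.38-fold higher in the Wisp1 line (0.46 ± 0.05, adjusted p = 7e-06). Of the 6 group means, 130 CPM in the Wisp1 line on collagen was the highest and 83.2 CPM with TGFb1 the lowest, a range of 1.56-fold. Neighbours in this order overlapped except between EV on collagen and untreated cells, and between the Wisp1 line on plastic and TGFb1.

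Among the CIP/KIP inhibitors, Cdkn1a, the p53-induced inhibitor of cyclin-CDK complexes, was the least steady in parental cells. The untreated libraries read 31.6, 65.1 and 33.0 CPM and those with TGFb1 45.8, 27.2 and 15.1 CPM. The groups overlapped; replicate 2 was far above the other untreated libraries, and replicate 1 was the highest with TGFb1. Coefficients of variation were 44% and 53%, the largest of the 7 tested genes in both groups. The change of −0.57 ± 0.45 on the log2 scale was not called (adjusted p = 0.52), nor with the pairs as a block (−0.64, adjusted p = 0.18). Within pairs it was 0.54, −1.26 and −1.13, so 2 of 3 pairs were lower and 1 was higher.

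In the stable lines Cdkn1a was at 10.3, 8.85 and 9.57 CPM in EV and 10.9, 8.94 and 11.5 CPM in the Wisp1 line on plastic. On collagen it was at 17.0, 14.1 and 13.3 CPM in EV and 15.2, 14.1 and 13.6 CPM in the Wisp1 line. The 6 collagen libraries were all above the 6 on plastic. Cdkn1a was 1.58-fold higher on collagen in EV (log2 0.66 ± 0.11, adjusted p = 0.00035) and 1.39-fold higher in the Wisp1 line (0.48 ± 0.11, adjusted p = 0.0033). These calls were lost when all 18 libraries shared a fit, at adjusted p = 0.24 and 0.4, with changes of 0.63 and 0.45.

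EV on plastic was 4.57-fold below untreated cells for Cdkn1a (log2 −2.19 ± 0.29, adjusted p = 0.0016), and its highest library, at 10.3 CPM, was under the lowest untreated one, at 31.6 CPM. The order of means ran from untreated (43.2 ± 19 CPM, SD, n = 3) and TGFb1 (29.4 ± 15) through collagen to plastic (9.58 ± 0.73 in EV), a range of 4.51-fold. Only 1 pair of neighbours in that order, the Wisp1 line on collagen and on plastic, did not overlap.

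Cdkn1b, the inhibitor that holds quiescent cells out of the cycle, ranged 1.23-fold between group means, and all neighbours in their order overlapped. It read 101, 122 and 116 CPM untreated and 104, 130 and 149 CPM with TGFb1, and these overlapped (log2 0.16 ± 0.15, adjusted p = 0.59). On plastic it was at 112, 111 and 102 CPM in EV and 104, 103 and 106 CPM in the Wisp1 line. Collagen gave 130, 120 and 112 CPM in EV and 137, 125 and 119 CPM in the Wisp1 line. No library on plastic was above any on collagen within a line, although EV came close, at 112 CPM for both the lowest on collagen and the highest on plastic. Cdkn1b rose 1.24-fold on collagen in the Wisp1 line (log2 0.32 ± 0.06, adjusted p = 0.0015) and 1.14-fold in EV (0.18 ± 0.06, adjusted p = 0.035). The call in EV ended without EV collagen replicate 1 (adjusted p = 0.15) or 2 (0.081), without EV plastic replicate 2 (0.059) or 3 (0.13), with upper-quartile scaling (0.063) and in a fit of all 18 libraries (0.41); in that fit the Wisp1 line also missed (0.089).

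Cdkn1c, an imprinted CIP/KIP gene, was near the limit of detection. Its counts were 9, 10 and 8 in untreated libraries and 10, 9 and 7 with TGFb1. EV had 0, 2 and 0 counts on plastic and 1, 0 and 0 on collagen, and the Wisp1 line had 0, 2 and 4 on plastic and 0, 3 and 1 on collagen. Every parental library had at least 7 counts and no stable-line library more than 4; 6 of 12 stable-line libraries had none. Per gene count, untreated cells had 9.91 times the Cdkn1c counts of EV on plastic, with a 95% exact interval of 2.49 to 86 from 27 against 2 counts, which covers counting error only. With no filter on low counts edgeR called this difference (adjusted p = 0.029), and DESeq2 did not (0.058).

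Among the D cyclins, Ccnd1, the cyclin that mitogens induce in mammary epithelium, read 1737, 1514 and 1055 CPM untreated and 707, 537 and 357 CPM with TGFb1. The highest treated library was below the lowest untreated one, and replicate 3 was the lowest of both groups. Ccnd1 fell 2.72-fold (log2 −1.45 ± 0.29, adjusted p = 0.026), from 1436 ± 348 to 534 ± 175 CPM (SD, n = 3). The change within pairs was −1.3, −1.5 and −1.56, and the blocked fit gave −1.47 ± 0.06 (adjusted p = 1.4e-05). Without the block the call ended when TGFb1 replicate 2 (adjusted p = 0.11), untreated replicate 1 (0.068) or untreated replicate 2 (0.1) was left out.

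**Figure D4:**
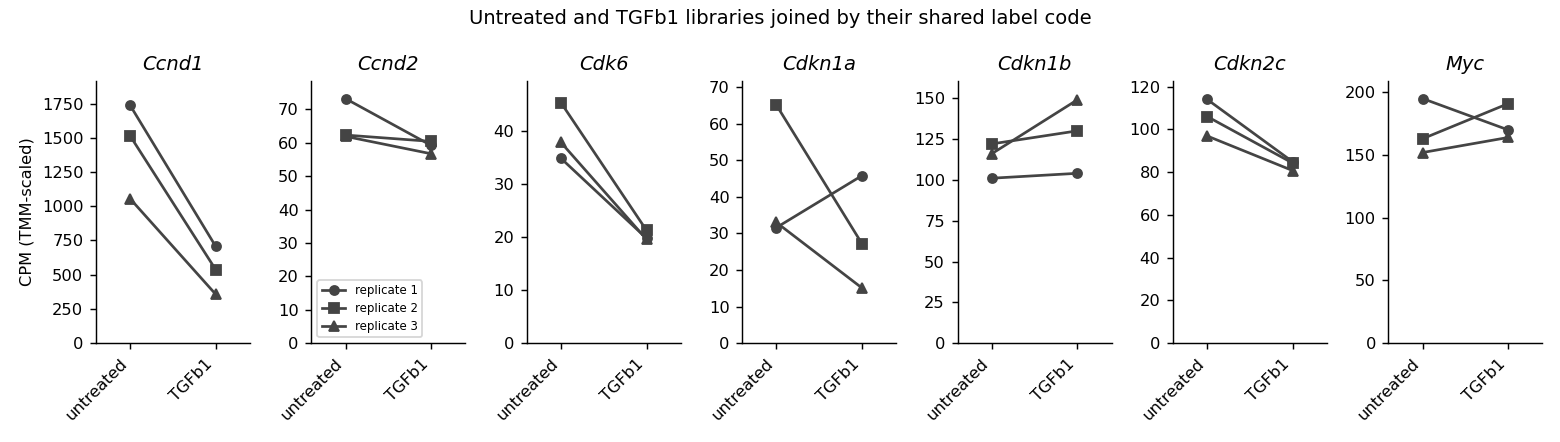
CPM (linear axis from 0) of the 7 tested genes in untreated and TGFb1-treated parental libraries, with lines joining libraries that share a label code. All 3 lines fall for Ccnd1, Cdk6, Cdkn2c and, by less, Ccnd2, whereas Cdkn1a rises in 1 pair and falls in 2.

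In the stable lines Ccnd1 stayed in a narrow band. It was at 1581, 1567 and 1621 CPM in EV and 1760, 1739 and 1738 CPM in the Wisp1 line on plastic, and the groups did not overlap. On collagen it was at 1622, 1716 and 1786 CPM in EV and 1674, 1744 and 1805 CPM in the Wisp1 line, which did overlap. The difference of 0.13 ± 0.04 on the log2 scale between the lines on plastic was not called (adjusted p = 0.7) and was called with the replicate number as a block within each substrate (adjusted p = 0.0037); that pairing rests on correlations between libraries and not on the labels. On collagen it was 0.03 ± 0.04 (adjusted p = 1).

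Between substrates Ccnd1 was 1.1-fold higher on collagen in EV (log2 0.13 ± 0.04, adjusted p = 0.025), and in the Wisp1 line the change was 0.02 ± 0.04 (adjusted p = 0.68). The call in EV was lost without EV collagen replicate 2 (adjusted p = 0.077) or 3 (0.1), without EV plastic replicate 1 (0.064) or 2 (0.088) and in the fit of all 18 libraries (0.8). The difference between these substrate effects, −0.11 ± 0.06, was not called (adjusted p = 0.97). Ccnd1 in EV on plastic overlapped untreated cells (log2 0.13 ± 0.16, adjusted p = 0.54). Its group means ran from 1746 CPM in the Wisp1 line on plastic to 534 CPM with TGFb1, a range of 3.27-fold. In that order only EV on collagen and on plastic, and untreated cells and TGFb1, were neighbours without overlap.

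Ccnd2, another D cyclin, was at 73.2, 62.3 and 61.9 CPM untreated and 59.2, 60.4 and 56.7 CPM treated. The libraries did not overlap, yet the change of −0.18 ± 0.11 was not called (adjusted p = 0.38, or 0.076 with the block). In that comparison 4 of 7 genes had groups that did not overlap, against 30.7% of all genes tested. The stable lines on plastic were far higher, at 206, 209 and 211 CPM in EV and 242, 235 and 226 CPM in the Wisp1 line. Collagen brought Ccnd2 to 122, 144 and 153 CPM in EV and 122, 147 and 147 CPM in the Wisp1 line, with no library as high as any on plastic.

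On collagen Ccnd2 was 1.46-fold lower in EV (log2 −0.55 ± 0.08, adjusted p = 0.00016) and 1.65-fold lower in the Wisp1 line (−0.73 ± 0.08, adjusted p = 1.7e-05). It was 3.13-fold higher in EV on plastic than in untreated cells (1.64 ± 0.08, adjusted p = 0.00022). Wisp1 against EV on plastic gave 0.17 ± 0.08 with groups that did not overlap, not called (adjusted p = 0.83) but called with the block within substrate (adjusted p = 0.0026). With Ccnd1 that made 2 of 7 calls in the blocked fit, both higher, where 3.15% of all genes were called (2.08% higher), and 2 of 7 genes with no overlap, against 12.5%; on collagen it was 0 of 7, against 9.42%. On collagen the Wisp1 line and EV had nearly equal Ccnd2 (−0.01 ± 0.08, adjusted p = 1), and the difference between the Wisp1 effects on the 2 substrates, −0.18 ± 0.11, was not called (adjusted p = 0.97, or 0.057 with the block within substrate). Group means ran from 234 ± 7.8 CPM in the Wisp1 line on plastic to 58.8 ± 1.9 CPM with TGFb1, a range of 3.98-fold, and all neighbours in that order were separate except EV and the Wisp1 line on collagen.

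The balance of Ccnd1 and Ccnd2 was also read; Ccnd3 is not in it. As Ccnd1 counts per Ccnd2 count, which are not corrected for gene length and are compared only between groups, it was 23.7, 24.3 and 17 in untreated libraries and 12, 8.9 and 6.29 with TGFb1. In the stable lines it was 7.63 ± 0.11 in EV and 7.45 ± 0.21 in the Wisp1 line on plastic, and 12.3 ± 0.86 and 12.6 ± 0.98 on collagen (SD, n = 3). Untreated libraries were above all others, and the collagen libraries, at 11.7 or more, were above those on plastic, at 7.69 or less. No test was run on this ratio.

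Cdk6, the kinase partner of the D cyclins, read 34.9, 45.4 and 37.9 CPM untreated and 19.8, 21.3 and 19.6 CPM with TGFb1. The treated libraries sat close together and well below the untreated ones. Cdk6 fell 1.97-fold (log2 −0.98 ± 0.13, adjusted p = 0.0082), in 3 of 3 pairs, and the blocked fit gave −0.97 ± 0.07 (adjusted p = 0.00012). Cdk4, the other kinase that D cyclins bind, was at −0.01 ± 0.09 on the log2 scale (adjusted p = 0.98); it was chosen for naming as the paralog of Cdk6 after its value was seen.

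The stable lines differed little in Cdk6. On plastic it was at 52.6, 50.8 and 59.1 CPM in EV and 56.4, 55.6 and 52.5 CPM in the Wisp1 line, and on collagen at 54.9, 58.7 and 61.3 CPM in EV and 52.6, 54.5 and 58.2 CPM in the Wisp1 line. These 4 groups overlapped each other. Collagen against plastic gave 0.14 ± 0.06 in EV (adjusted p = 0.096, but 0.023 without EV plastic replicate 3) and 0.03 ± 0.06 in the Wisp1 line (adjusted p = 0.68). All 12 stable-line libraries were above the highest untreated one, at 45.4 CPM, and EV on plastic was 1.36-fold above untreated cells (log2 0.44 ± 0.12, adjusted p = 0.022). That call ended without EV plastic replicate 1 (adjusted p = 0.064), 2 (0.051) or 3 (0.087). Means ranged 2.89-fold, from 58.3 ± 3.2 CPM in EV on collagen to 20.2 ± 0.95 CPM with TGFb1, in 3 separate blocks: the stable lines, untreated cells and TGFb1.

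Myc was at 195, 163 and 152 CPM in untreated libraries and 170, 191 and 164 CPM with TGFb1. The groups overlapped, with a log2 change of 0.03 ± 0.13 (adjusted p = 0.94) and pairs at −0.2, 0.23 and 0.12. On plastic it was at 295, 295 and 325 CPM in EV and 317, 327 and 330 CPM in the Wisp1 line. On collagen it was at 266, 272 and 284 CPM in EV and 261, 269 and 252 CPM in the Wisp1 line. Every library on plastic was above every one on collagen, and all 12 were above the highest parental one, at 195 CPM.

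Myc was 1.22-fold lower on collagen in the Wisp1 line (log2 −0.29 ± 0.04, adjusted p = 0.00014) and 1.09-fold lower in EV (−0.13 ± 0.04, adjusted p = 0.029). The EV call ended without EV collagen replicate 1 (adjusted p = 0.097) or 2 (0.083), without EV plastic replicate 3 (0.14), with no filter (0.059), in a fit of only those 2 groups (0.054) and in the fit of all 18 (0.25). The difference between the lines in this effect, −0.16 ± 0.06, was not called (adjusted p = 0.97), although its unadjusted p was 0.018. EV on plastic was 1.78-fold above untreated cells (0.83 ± 0.10, adjusted p = 0.0013). The means ranged 1.91-fold, from 325 ± 6.8 CPM in the Wisp1 line on plastic to 170 ± 23 CPM in untreated cells, and fell into plastic, collagen and parental libraries with overlap only inside these.

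Across the substrate comparisons the groups of 6 of 7 genes did not overlap in EV, against 48.0% of all genes tested, and those of 5 of 7 in the Wisp1 line, against 51.5%. Between EV on plastic and untreated cells it was 4 of 7, against 57.7%. The summed fibroblast markers were 17.0 to 22.8 CPM on plastic and 25.3 to 33.3 CPM on collagen, and the leukocyte markers 8.6 to 13.9 and 11.2 to 21.6 CPM. Untreated cells had 35.9 to 59.4 CPM of the former and 4.2 to 12.3 CPM of the latter. Their part in these results was not tested. For the Wisp1 comparisons without a block, counts of 0 came with edgeR, DESeq2 and limma-voom alike (the block within substrate gave 2 of 7 on plastic), and the log2 changes of the 7 genes lay between −0.06 and 0.17 on plastic and between −0.08 and 0.07 on collagen. On plastic 1 of 7 genes had an unadjusted p under 0.05 with edgeR (Ccnd1, 0.0066), 1 with limma-voom and 3 with DESeq2 (Ccnd1, Ccnd2 and Myc); on collagen it was 0 of 7 with each. Over all 13953 genes there were 822, 797 and 800 such genes on plastic with edgeR, limma-voom and DESeq2, and 707, 838 and 658 on collagen. For the difference between the Wisp1 effects on collagen and on plastic, edgeR called 0 of 7 and 0.0% of all genes. Without a block Myc was the only 1 of 7 under 0.05 unadjusted by all 3 tools (410, 469 and 372 of all genes with edgeR, limma-voom and DESeq2). In edgeR with the block within substrate Ccnd2 (unadjusted p = 0.00036), Myc (0.0012), Ccnd1 (0.0042) and Cdkn1b (0.01) were under 0.05, as were 2039 of all genes. None of the 7 was called there.

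Other genes of the pathway were read from lists. With TGFb1 the share called over all genes was 11.1% (6.14% higher and 4.92% lower). It was 44.9% with the pairs as a block (22.4% higher and 22.5% lower). With a library left out and no block, 380 to 1430 of all genes were called, against 1645 with none left out. After TGFb1, 5 of 16 other CDK inhibitor, cyclin and CDK genes were called lower and none higher, with a median log2 change of −0.67 beside −0.01 over all genes tested. Among them were Ccne2, the E-type cyclin that activates CDK2 at the start of S phase (2.11-fold lower, 42.5 ± 7.1 to 20.3 ± 1.7 CPM, adjusted p = 0.0091), and Cdk2 itself (1.62-fold lower, adjusted p = 0.02). With the pairs as a block 12 were lower and 1 higher. With no block, none was called when replicate 2 of either group was left out, and 2 were when replicate 3 of either group was.

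Of 13 RB and E2F genes 2 were lower and none higher after TGFb1 (median −0.37; with the block 9 lower and 1 higher). They were E2f7, a repressor of the E2F family (1.88-fold, adjusted p = 0.02), and E2f1, an activator of S-phase genes (1.86-fold, adjusted p = 0.026). Leaving out replicate 2 of either group, or untreated replicate 3, ended both calls, and without TGFb1 replicate 1 the list gave 5 lower. Of 15 regulators known to act upstream of the 10 genes, Foxo1, a transcription factor that induces CDK inhibitors, was 1.87-fold higher (adjusted p = 0.031). Cbx7, a Polycomb protein that represses the INK4 locus, was 2.18-fold lower (adjusted p = 0.019), and Smad3, a transducer of TGF-beta signals, 1.43-fold lower (adjusted p = 0.044). None of these 3 was called without untreated replicate 2. Smad3 was also lost without TGFb1 replicate 1 (adjusted p = 0.053), 2 (0.15) or 3 (0.12), or untreated replicate 1 (0.12). Foxo1 was also lost without TGFb1 replicate 1 (0.062) or 3 (0.081), or untreated replicate 3 (0.088). Cbx7 was also lost without untreated replicate 3 (0.052). The block gave 5 higher and 5 lower.

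MYC's partners gave calls in both directions with TGFb1, and MYC's targets gave few without the block. Over all genes 11.1% were called, and 44.9% with the block. With a library left out, the 1645 calls over all genes became 380 to 1430. Of 12 tested MYC network genes 2 rose, Mxd4, a MAX partner that opposes MYC (2.54-fold, 32.3 ± 4.1 to 82.8 ± 11 CPM, adjusted p = 0.0046), and Mycl1, the L-MYC gene (2.96-fold, adjusted p = 0.022). Mxd3, another MAX partner, was 1.96-fold lower (adjusted p = 0.018); Mxd3 and Mycl1 were not called without untreated replicate 2 or TGFb1 replicate 3, and the block gave 5 higher and 3 lower. Of 20 MYC target genes only Odc1, the rate-limiting enzyme of polyamine synthesis, was called, 3.71-fold lower (809 ± 150 to 221 ± 69 CPM, adjusted p = 0.0081, or 0.051 without TGFb1 replicate 2). The list median was −0.16, 2 were lower without TGFb1 replicate 1, and 10 of 20 were lower with the block. Of 17 tested p53 target genes 2 were higher and none lower (median 0.08; with the block 7 higher and 1 lower), Plk2, a polo-like kinase (3.49-fold, adjusted p = 0.0028), and Fas, a death receptor (4.62-fold, adjusted p = 0.0038).

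On collagen most of the MYC target genes were called, in comparisons that called 36.5% of all genes in EV and 40.4% in the Wisp1 line. In the Wisp1 line 19 of 20 were lower and none higher, with changes from −0.62 to −0.15 and a median of −0.31, beside 0.01 for all genes tested. In EV 13 of 20 were lower and none higher, with a median of −0.20 beside 0. Odc1 was 1.26-fold lower in the Wisp1 line (adjusted p = 0.00013) and 1.15-fold lower in EV (adjusted p = 0.0052). Without EV collagen replicate 1, or without EV plastic replicate 1, 8 of 20 were called in EV, and the fit of all 18 libraries called 5 of 20 in EV and 11 of 20 in the Wisp1 line. Mxd4 was higher on collagen in both lines, 2.15-fold (adjusted p = 4.2e-05) and 1.74-fold (adjusted p = 0.00042).

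Over all genes tested between substrates, 19.2% were called higher and 17.3% lower in EV, and 21.3% and 19.1% in the Wisp1 line. In the same comparison 4 of 11 tested MYC network genes were higher in EV and 5 of 11 in the Wisp1 line. None of them was lower in either line. RB and E2F genes split into 4 higher and 0 lower of 13 in EV, and 5 higher and 4 lower in the Wisp1 line; E2f1 was higher in both, 1.18-fold (adjusted p = 0.0014) and 1.14-fold (adjusted p = 0.0069). Other CDK and cyclin genes lay between −0.33 and 0.28 on the log2 scale, with 1 higher and 3 lower of 16 in EV and 1 higher and 5 lower in the Wisp1 line, 2 lower in EV without EV collagen replicate 2 or EV plastic replicate 1, and none in the fit of all 18 libraries. Of 17 p53 target genes 5 were lower and 1 higher in EV, and 4 lower and 2 higher in the Wisp1 line. Plk2 was 1.84-fold and 2.03-fold lower and Fas 1.97-fold and 1.66-fold lower on collagen in EV and the Wisp1 line. Cdkn1a, itself a p53 target but not in the list, was higher there, as were 1 listed gene in EV and 2 in the Wisp1 line. Upstream regulators gave 3 higher and 3 lower of 15 in EV, and 4 and 4 in the Wisp1 line. The fit of all 18 libraries called at most 3 genes of each of these lists.

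Between EV on plastic and untreated cells 43.4% of all genes were called (19.5% higher and 23.8% lower in EV). With a library left out, the 6276 calls over all genes became 3711 to 8557, so list counts from such fits stand beside a changed total. Of 20 MYC target genes 18 were higher and none lower, with a median of 0.62 beside −0.05 for all genes tested. All 20 estimates were above 0, from 0.07 to 1.07, and 16 to 19 were called with each library left out. Mxd4 was 3.76-fold lower (adjusted p = 0.00042) and Mycl1 3.04-fold higher (adjusted p = 0.0022), among 4 MYC network genes higher and 5 lower of 11. Other CDK and cyclin genes gave 3 higher and 4 lower of 16, Cdk2 among the latter (1.49-fold, adjusted p = 0.0026), and RB and E2F genes 2 higher and 3 lower of 13. Of 17 p53 target genes 8 were higher and 3 lower. Plk2 was 4.99-fold higher (adjusted p = 0.0003), and Fas was not called (adjusted p = 0.36). Cdkn1a, which is not in the list, was lower, as were the 3 listed genes. Without any single EV library, or without untreated replicate 2, the p53 list gave 3 or 4 higher and 2 lower, the MYC network list 1 or 2 higher and 2 or 3 lower, and the RB and E2F list 0 or 1 higher and 1 or 2 lower. Without untreated replicate 1 the last gave 6 higher and 4 lower. Upstream regulators were 5 higher and 2 lower of 15, or 8 and 3 without untreated replicate 1. In the Wisp1 comparisons none of the listed genes was called on either substrate, and the list medians lay between −0.05 and 0.13. The block within substrate called, all of them higher, 5 MYC target genes, 2 RB and E2F genes, 2 TGF-beta check genes and 1 other CDK or cyclin gene on plastic. On collagen it called 1 upstream regulator, also higher. The shares over all genes were 3.15% on plastic and 2.57% on collagen. For the difference between the Wisp1 effects on the substrates this block called 2 MYC target genes and 2 TGF-beta check genes, all lower. No setting called more than 70 of all genes for that difference.

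**Figure D5:**
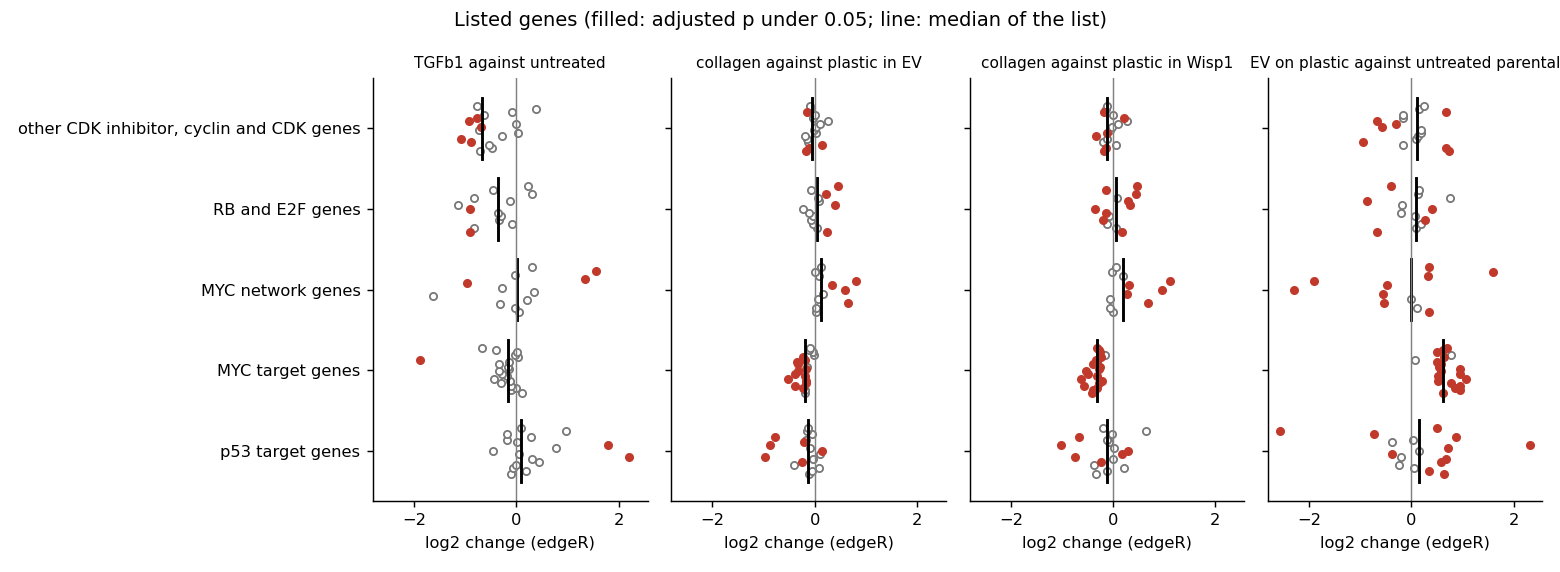
Log2 change of each tested gene of 5 lists (1 row each) in 4 comparisons; filled points passed the adjusted p and the vertical line is the median of the list. The MYC target genes lie left of 0 on collagen in the Wisp1 line, where 19 of 20 are filled, and right of 0 in EV against untreated cells, where 18 of 20 are.

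The genes most like the 3 that varied most between groups were sought among 10510 genes with a mean of at least 5 CPM, as the smallest mean absolute difference of centred log2(CPM + 0.5) over the 18 libraries. For Ccnd2 they were Gls2 (0.10), Mthfd2 (0.11) and Asns (0.16), where the median gene stood at 0.66. For Cdkn1a they were Il1r1 (0.20), Csgalnact1 (0.21) and Synpo (0.22), with a median of 0.69. For Ccnd1 they were Shmt1 (0.09), Uhrf1 (0.09) and Lig1 (0.10), with a median of 0.50. Gls2, Mthfd2 and Asns encode enzymes of glutamine, folate and asparagine metabolism, and Uhrf1 and Lig1 a chromatin factor and a ligase that act at DNA replication. These points share libraries and depth, and the distances are a description.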

How the data were processed

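Poly(A)-enriched RNA of 18 libraries was prepared with a stranded kit, per the labels. The authors deposited whole-number counts for each gene symbol, not normalized; CASAVA, HTSeq, STAR, BWA, limma, R 3.2.4 and the build mm9 are listed without roles in the submitters' processing notes. Annotation and strand setting: not given in the sources used here. Reads outside genes (10.23 to 13.52%), ambiguous reads (1.02 to 2.08%) and unaligned reads (1.84 to 3.47%) stayed out of library sizes and tests. Counts of the deposited tables were tested with edgeR 4.0.16 in R 4.3.3 (filterByExpr, TMM, robust quasi-likelihood F tests, Benjamini-Hochberg over all genes of a comparison), in 3 fits: the 6 parental libraries, the 12 stable-line libraries, and EV on plastic with untreated cells. Each standard error is |log2 change|/√F. Alternatives were DESeq2 1.42.0, limma-voom (limma 3.58.1), other scalings, filters and fits, replicate blocks and leaving out each library. The scripts were tested on simulated data.

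Other codes in the labels recur between untreated and TGFb1 libraries, without a stated meaning. Deviations from the group means of same-coded libraries correlated at 0.83, 0.68 and 0.81, above the minimum of 0.1 set for treating them as pairs. The main fit and every fit with a library left out had no block, so they do not use this pairing. The blocked fit was run as an alternative. EV and Wisp1 libraries with the same number correlated at 0.21, 0.32 and 0.35 on plastic and 0.63, 0.28 and 0.47 on collagen.

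The genes and lists were chosen with earlier results of these data known, and from each list up to 2 genes called higher and 2 called lower with the smallest p after TGFb1 were named; 1 gene that the rule picks is not reported here. Cdk4 and neighbours of Cdkn2a are named outside that rule. Promoter sequences are from RefSeq (GRCm38.p6), exons from GENCODE on the same build.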

Additional observations from a re-analysis of the deposited data

How the results depend on the processing

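Of 818 alternative values for the tested members, 768 kept their direction and side of the threshold, 26 lost a call, 8 gained one and 16 changed sign, with no call on either side. The cause of these changes was not tested. The number of members called after TGFb1 was 1 to 2 with each library left out (1 without TGFb1 replicate 2, untreated replicate 1 or untreated replicate 2). It was 3 to 5 between substrates in EV (3 without EV collagen replicate 2), 5 in the Wisp1 line, 3 to 4 for EV against untreated cells and 0 in the Wisp1 comparisons. A fit of all 18 libraries called 2 members between substrates in EV and 3 in the Wisp1 line. The share of all genes called in that fit is not given here, so whether the drop is particular to the members cannot be told. Over all genes, the 1645 calls after TGFb1 became 1503 to 6672 under other settings and 380 to 1430 with a library left out. The 5095 and 5641 calls between substrates became 1629 to 5690 and 2071 to 6238 under other settings. With a library left out they became 3849 to 4598 in EV and 4450 to 5443 in the Wisp1 line. The 6276 for EV against untreated cells became 3711 to 8557. For Wisp1, 2 calls on plastic became 0 to 440 and 10 on collagen 2 to 358, and 0 calls of a difference between them became 0 to 70.

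The log2 changes that took another sign were all uncalled. With each library left out in turn, Myc after TGFb1 ran from −0.05 to 0.14, Cdk6 for Wisp1 on plastic from −0.03 to 0.08, and for Wisp1 on collagen Cdkn1a from −0.12 to 0.07, Ccnd1 from −0.01 to 0.05 and Ccnd2 from −0.09 to 0.08. Between substrates in the Wisp1 line Ccnd1 ran from −0.01 to 0.05, and was 0 in the fit of all 18 libraries, and Cdk6 from −0.01 to 0.07. Ccnd1 in EV against untreated cells ran from −0.05 to 0.32.

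With the shared label codes as a replicate block, 3 members were called after TGFb1 in place of 2. A block over the 4 stable-line groups changed no member's call, and a block within each substrate gave 2 calls for Wisp1 on plastic and 0 on collagen. Same-numbered libraries of different substrates correlated at 0.2, −0.16 and 0.37 in EV and at −0.07, −0.13 and −0.05 in the Wisp1 line. In EV, 0.2 and 0.37 were above the minimum of 0.1, and the other values were below it. The labels do not say whether these libraries are paired. Depth limits what can be said of Cdkn1c. For Cdkn2a and Cdkn2b the presence of the DNA was not measured, and the counting of reads with several alignments is not given.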
